A study of Mus musculus with 20 samples.

Results

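The matrix proteases and their inhibitors were taken as every gene of the deposited count table whose mouse symbol begins with Mmp, Timp or Adam followed by a number, or with Adamts. This rule found 50 of the 15956 genes listed, namely 13 Mmp, 4 Timp, 13 Adam, 15 Adamts, and 5 Adamtsl genes. Messenger RNA was counted in the left ventricle of 20 male mice, 5 on each of 4 diets, all labelled as 18 months old (the study's methods give a younger age at tissue collection). NP mice ate a diet with normal protein content, LP mice a low-protein diet, HF mice a high-fat diet with normal protein, and HF+LP mice a diet high in fat and low in protein. Casein was the protein source of all 4 diets, no group carried a named allele or received a drug, and the sources used here do not name the strain. The HF versus NP comparison addresses the effect of a high-fat diet, and HF+LP versus HF addresses that of less protein on top of it.

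Matrix metalloproteases (Mmp) are zinc-dependent enzymes that cut collagens, laminins, and other proteins of the extracellular matrix, and most are secreted or displayed as inactive proforms. Tissue inhibitors of metalloproteases (Timp) occupy the active site of these enzymes, and Timp2 additionally forms a complex with the membrane-anchored Mmp14 that activates pro-Mmp2. Adam proteins sit in the cell membrane, and those with a zinc site release growth factors, cytokines, and receptors from the cell surface. Of the 13 Adam genes here, 5 (*Adam5*, *Adam11*, *Adam22*, *Adam23*, and *Adam32*) code for proteins without that site. Adamts proteins are secreted and cut proteoglycans or trim procollagens, whereas Adamts-like (Adamtsl) proteins share their binding domains but lack the protease domain. In the heart these families are known for their part in matrix turnover and remodeling, much of it carried out by fibroblasts.

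Libraries were made from the 3′ ends of transcripts, so long transcripts do not yield more reads than short ones, and levels of different genes are given below on that scale. A normalized count is the number of reads scaled to a common library size, and the base mean is its mean over the 20 mice. Libraries held 12559607 to 23331907 reads, of which 8307 to 29245 fell in the 50 genes. The library of LP mouse 13 stood apart, with a median correlation of 0.907 with the other LP mice, where every other library reached at least 0.942 within its diet, so LP values that moved by more than 1.5 times without it are given both ways. Cardiomyocyte markers dominated all libraries, with a summed normalized count of 444247 to 707267, but 5 atrial markers (*Nppa*, *Sln*, *Myl7*, *Myl4*, and *Bmp10*) summed to between 973 in an HF+LP mouse and 259457 in LP mouse 13.

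Of the 50 genes, 41 had enough counts to be tested (12 Mmp, all 4 Timp, 11 Adam, 9 Adamts, and all 5 Adamtsl), and 25 of these had a base mean over 50. The 9 genes left out were *Adam5*, *Adam32*, *Adamts3*, *Adamts6*, *Adamts12*, *Adamts14*, *Adamts17*, *Adamts19*, and *Mmp27*, with base means of 2.78 to 6.58. Differences were tested with edgeR's quasi-likelihood test on all 20 libraries, and a call required a base mean over 50 together with an adjusted p (Benjamini-Hochberg) under 0.01. No member was called in any of the 6 comparisons or in the test of any difference among the 4 diets. In that last test 0.66% of all 10159 genes with a base mean over 50 were called, and 16 of the 41 members (39%) had an unadjusted p under 0.05 against 15.9% of all 13991 genes tested.

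Inhibitor transcripts were the most abundant. The Timp genes took 53.4% ± 6.22 of the reads in these families (SD, n = 20), against 13.2% ± 2.4 for Mmp, 13.5% ± 2.23 for Adam, 11.6% ± 1.66 for Adamts, and 8.36% ± 1.14 for Adamtsl. *Timp3*, which binds to the matrix and also inhibits Adam17 and several Adamts enzymes, had a base mean of 4088 and alone took 28.8% of the reads in these families. *Timp2* followed at 3029, *Timp4*, the inhibitor best known from the heart, at 487, and *Timp1*, the inducible member, at 63.1. Among the proteases the gelatinase *Mmp2* ranked highest at 579, next to the sheddases *Adam15* at 504 and *Adam17* at 471 and the membrane-anchored *Mmp15* at 495. *Adamtsl5* at 622 and *Adamtsl4* at 462, both coding for microfibril-binding proteins without protease activity, exceeded every Adamts enzyme, of which *Adamts1* at 377 and *Adamts5* at 344 were highest. Classical collagenases were near the lower limit. *Mmp13*, the only one of 4 in the table, had a base mean of 8.57.

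**Figure D1:**
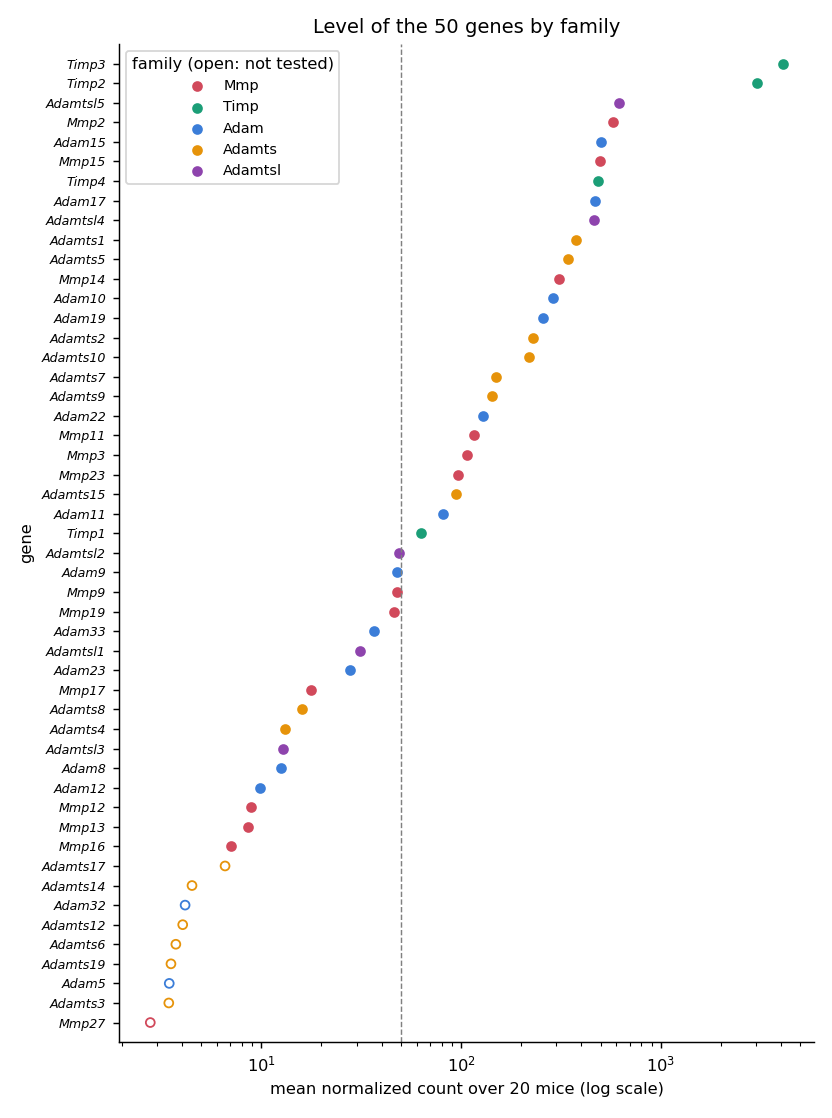
Mean normalized count over 20 mice (log axis) for each of the 50 genes, colored by family, with open symbols for the 9 genes that were not tested and a dashed line at a base mean of 50. *Timp3* and *Timp2* lie at 4088 and 3029, well above *Adamtsl5* next in order at 622.

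High-fat feeding was accompanied by higher values of the Mmp14, Mmp2, and Mmp3 transcripts and of *Adamts2* and *Adamtsl2*, and by lower values of *Adamts7*, *Adamtsl4*, *Adamtsl5*, and *Mmp15*. None of these genes was called in HF versus NP, where 0.364% of all genes with a base mean over 50 were. At an unadjusted p under 0.05, 7 of the 41 members (17.1%) were higher in HF, against 5.17% of all genes tested, namely *Mmp2*, *Mmp3*, *Mmp14*, *Timp2*, *Adamts2*, *Adamts4*, and *Adamtsl2*. A further 5 (12.2%, against 7.91%) were lower, namely *Mmp15*, *Adamts7*, *Adamts10*, *Adamtsl4*, and *Adamtsl5*. The count of lower members was 3 without NP mouse 4, 5, or 8, HF mouse 4 or 5, or HF+LP mouse 3 (6.26% to 7.35% of all genes), with RLE size factors (6.9%), and with TMM without mitochondrially encoded genes (6.92%), shares near that of all genes. The 5 HF values lay entirely above the 5 NP values for 6 members (14.6%, against 2.07% of all genes) and entirely below them for 4 (9.76%, against 3.6%). The median log2 fold change of the 41 members was 0.18, with 28 above and 13 below 0, beside a median of −0.00108 over all genes. DESeq2 called 2 members, *Mmp14* and *Mmp3*, with the same thresholds, and 1.57% of all genes.

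*Mmp14* (ENSMUSG00000000957, chromosome 14, 54431612 to 54445364, plus strand, GRCm38) encodes the membrane-anchored protease that activates pro-Mmp2 and cuts fibrillar collagen at the cell surface. In order of animal number, the 5 NP mice (numbers 3, 4, 5, 6, and 8) had normalized counts of 164, 174, 281, 196 and 231, and the 5 HF mice (numbers 1 to 5) had 380.1, 283, 454, 442 and 446. All HF values exceeded all NP values, with the lowest HF mouse just above the highest NP mouse. The means were 401 ± 72.0 and 209 ± 47.4 (SD, n = 5), a log2 fold change of 0.94 ± 0.18 (SE) with an edgeR adjusted p of 0.0140. It stayed between 0.87 and 1.07 when any 1 mouse was left out. The reads came from tissue, so more cells that express a gene and more RNA per cell cannot be told apart for this or any other gene below.

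*Mmp2* and *Timp2*, which act with Mmp14, had smaller differences. *Mmp2* (ENSMUSG00000031740) encodes the gelatinase that cuts type IV collagen and denatured collagens, and its normalized counts were 577, 604, 561, 511 and 494 in NP and 835, 676, 613, 707 and 707 in HF. The lowest HF value was above the highest NP value, and the log2 fold change was 0.36 ± 0.11 (edgeR adjusted p = 0.112). *Timp2* had 5589, 4751, 3345, 2908 and 2272 in HF, where HF mice 1 and 2 stood far above the other 3, which lay near the NP range of 2148 to 3223. Its log2 fold change was 0.49 ± 0.19 (edgeR adjusted p = 0.260) and came to 0.30 without HF mouse 1, the lowest of the values with a mouse left out.

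*Mmp3* (ENSMUSG00000043613, chromosome 9, 7445822 to 7455975) encodes stromelysin 1, which cuts proteoglycans, laminin, and fibronectin and activates other Mmp proforms. Normalized counts were 75.9, 74.0, 91.8, 76.6 and 75.8 in NP and 149, 121, 187, 188 and 167 in HF. The groups were separated by a gap, with NP mouse 5 above the other 4 NP mice. The log2 fold change was 1.05 ± 0.25, with an edgeR adjusted p of 0.0390. With only the NP and HF libraries in the model, the adjusted p was 0.00465 and *Mmp3* was called, as were 0.609% of all genes. The other stromelysin-type gene in the table, *Mmp11*, had a log2 fold change of −0.29 ± 0.17, so the 2 genes of that list had opposite signs.

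**Figure D2:**
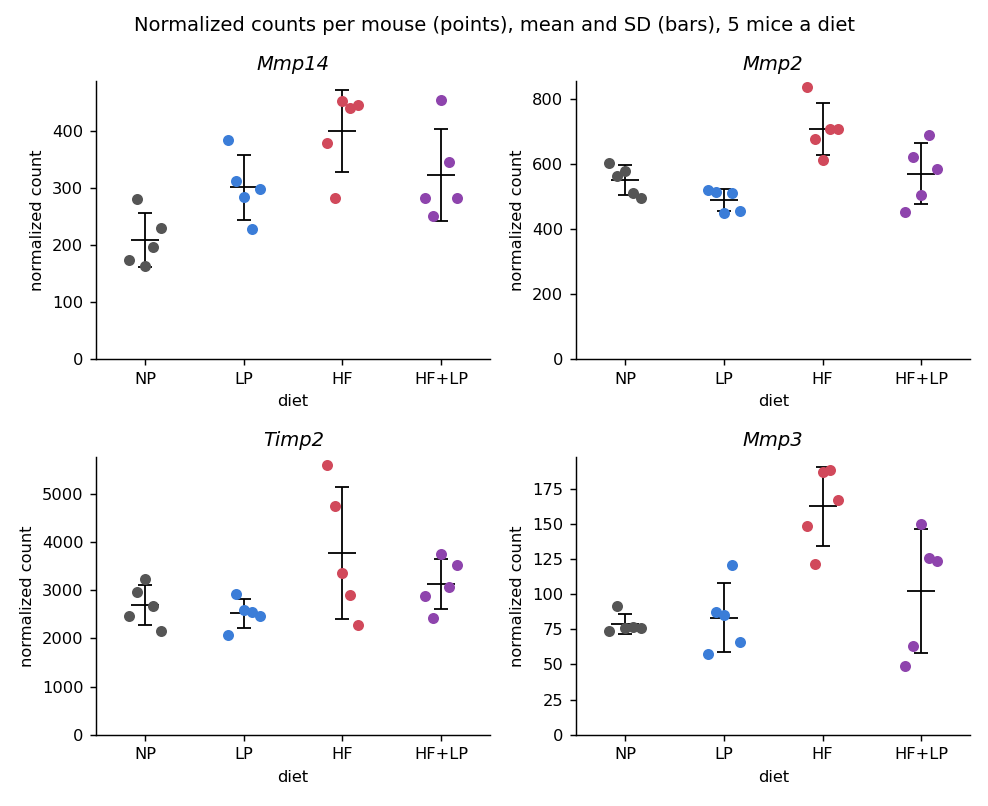
Normalized counts (vertical axis, from 0) of *Mmp14*, *Mmp2*, *Timp2*, and *Mmp3* in each mouse (points) by diet, with the mean and SD of 5 mice (bars). HF mice lie above NP mice for *Mmp14*, *Mmp2*, and *Mmp3*, while for *Timp2* HF mice 1 and 2 stand far above the NP range and the other 3 lie near it.

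The remaining inhibitors and membrane-anchored proteases had differences of both signs. *Timp1* averaged 59.0 ± 18.3 in NP and 76.3 ± 17.0 in HF, and its log2 fold change of 0.37 ± 0.28 was within the spread of the mice. *Timp3* and *Timp4* had log2 fold changes of −0.20 ± 0.29 and −0.50 ± 0.41, with wide errors described further below. *Mmp15*, which is anchored in the membrane like Mmp14, had 474, 361, 426, 483 and 466 in HF, all under the NP range of 499.9 to 558. Its log2 fold change was −0.27 ± 0.12 (edgeR adjusted p = 0.359), opposite in sign to that of *Mmp14*. The low-count *Mmp16* and *Mmp17*, also membrane-anchored, had log2 fold changes of 0.73 ± 0.49 and 0.11 ± 0.31, so 3 of the 4 genes in this list lay above 0 and 1 below, with only *Mmp14* and *Mmp15* at an unadjusted p under 0.05.

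The Adamts and Adamts-like genes did not share a direction. *Adamts2* (ENSMUSG00000036545, chromosome 11, 50602084 to 50807573) encodes a procollagen N-proteinase, which trims the amino-terminal propeptide of fibrillar procollagens, and it was the only 1 of the 3 genes with this role that could be tested. It had normalized counts of 184, 183, 215, 198 and 191 in NP and 328, 312, 269, 289.5 and 280.0 in HF. The groups did not overlap, and the log2 fold change was 0.61 ± 0.16 (edgeR adjusted p = 0.0628). Without the library of LP mouse 13, which is in neither group, the edgeR adjusted p was 0.00639 and *Adamts2* was called, as were 0.686% of all genes. That refit repeated the filter, the normalization, the shared estimate of the spread, and the adjustment.

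*Adamtsl2* (ENSMUSG00000036040, chromosome 2, 27079379 to 27108981), whose product binds fibrillin and latent TGF-β binding protein, had 33.0, 53.7, 36.7, 34.4 and 29.4 in NP and 76.3, 83.0, 62.0, 61.6 and 64.4 in HF. Again no value overlapped, with a log2 fold change of 0.89 ± 0.24 (edgeR adjusted p = 0.0695) at a base mean of 49.2. The other 4 Adamts-like genes had log2 fold changes of −0.67 ± 0.27 for *Adamtsl4*, −0.40 ± 0.24 for *Adamtsl1*, −0.28 ± 0.33 for *Adamtsl3*, and −0.25 ± 0.10 for *Adamtsl5*. *Adamtsl5*, the most abundant, had 633, 705, 664, 713 and 724 in NP and 577, 539, 547, 599 and 624 in HF and the groups did not overlap. The Adamts-like genes together took 7.16% ± 1.12 of the reads in these families in HF mice and 9.43% ± 0.611 in NP mice (SD, n = 5).

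*Adamts7* (ENSMUSG00000032363), whose product cuts thrombospondin 5 and is known from vascular smooth muscle, had 226, 224, 146, 151 and 207 in NP and 126, 125, 98.7, 122 and 107 in HF. The highest HF value stayed under the lowest NP value, and the log2 fold change was −0.72 ± 0.18 (edgeR adjusted p = 0.0562). Its relative *Adamts10*, which binds fibrillin 1 in microfibrils, had a log2 fold change of −0.52 ± 0.25 with overlapping groups. The smooth muscle gene *Myh11* was lower in HF as well (−1.39 ± 0.32, edgeR adjusted p = 0.0341). The 7 mural cell markers as a list summed to 7556 to 9254 in HF and 8410 to 9206 in NP, with 2 of the 7 lower at an unadjusted p under 0.05. The part of these cells in the *Adamts7* values was not tested.

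**Figure D3:**
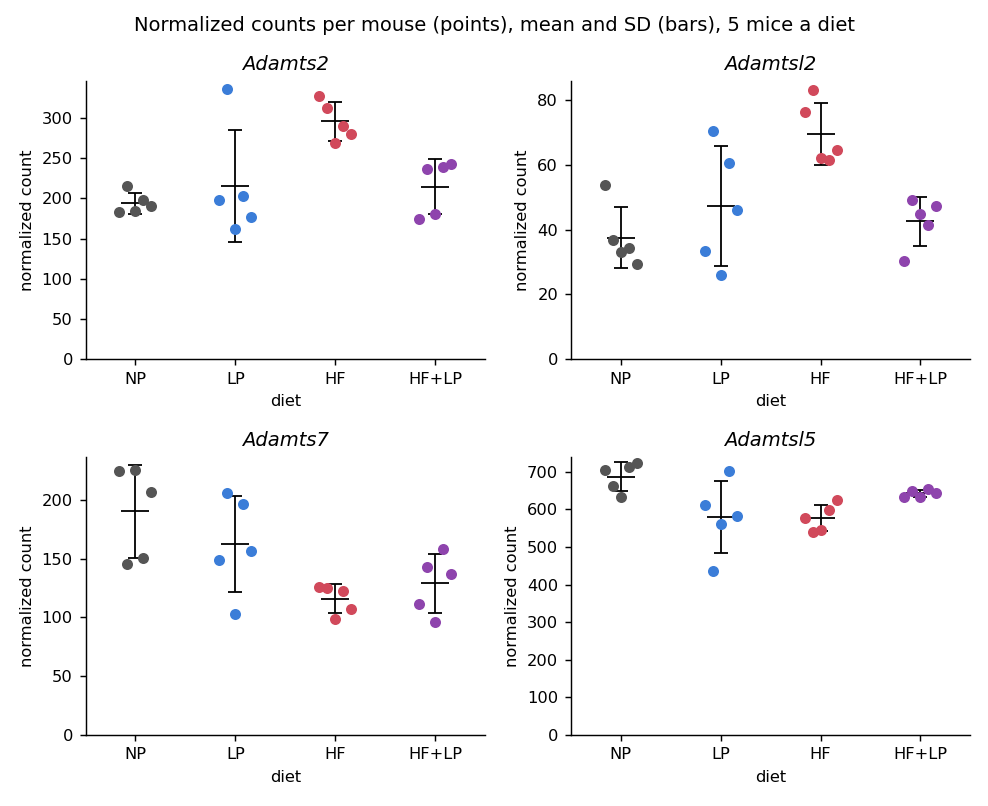
Normalized counts (vertical axis, from 0) of *Adamts2*, *Adamtsl2*, *Adamts7*, and *Adamtsl5* in each mouse (points) by diet, with the mean and SD of 5 mice (bars). HF values lie above all NP values for *Adamts2* and *Adamtsl2* and below all of them for *Adamts7* and *Adamtsl5*, and HF+LP values of *Adamtsl5* cluster between 632 and 654.

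Sequence in front of the transcription start is shown for 5 genes whose HF values stood clear of the NP or the HF+LP values or that had the lowest adjusted p of HF+LP versus HF. Each line is the 120 bases before the RefSeq start on GRCm38.p6, written 5′ to 3′ on the strand of the gene. Capitals mark matches to the motifs named next, searched on both strands, and adjoining capitals can belong to more than 1 match. TGANTCA is the element bound by the AP-1 factors Fos and Jun. The letters TATAAA near a start are bound by general transcription machinery and are called the TATA box here. The GC box, bound by Sp1 and relatives, was searched as GGGCGG. The E-box was searched as CACGTG and had no match in these lines.
*Mmp14* (chr14:54431478-54431597, plus strand): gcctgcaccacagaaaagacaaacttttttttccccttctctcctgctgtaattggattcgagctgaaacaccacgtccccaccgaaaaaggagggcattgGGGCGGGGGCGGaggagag
*Mmp3* (chr9:7445702-7445821, plus strand): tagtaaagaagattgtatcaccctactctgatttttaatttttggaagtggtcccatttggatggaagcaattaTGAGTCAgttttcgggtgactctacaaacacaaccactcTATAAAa
*Mmp13* (chr9:7272394-7272513, plus strand): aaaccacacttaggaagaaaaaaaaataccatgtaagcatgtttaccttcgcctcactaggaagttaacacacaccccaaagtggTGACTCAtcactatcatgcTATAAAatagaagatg
*Adamts2* (chr11:50601965-50602084, plus strand): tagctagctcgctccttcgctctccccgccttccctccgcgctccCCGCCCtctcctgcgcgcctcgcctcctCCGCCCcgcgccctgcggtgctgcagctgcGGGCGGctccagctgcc
*Adamtsl2* (chr2:27079259-27079378, plus strand): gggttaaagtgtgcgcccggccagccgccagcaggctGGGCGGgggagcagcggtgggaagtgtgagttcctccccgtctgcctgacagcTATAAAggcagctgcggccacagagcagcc
*Mmp3* and *Mmp13*, which lie in the same gene cluster on chromosome 9, each hold an AP-1 element and a TATA box. *Mmp14* and *Adamts2* hold GC boxes only, and *Adamtsl2* holds a GC box and a TATA box. Within the 250 bases before the start, an AP-1 element was found in 4 of the 30 members with a promoter in the RefSeq table (13.3%), against 7.82% of 27025 genes. A TATA box was in 4 (13.3%, against 14.3%) and a GC box in 19 (63.3%, against 35.4%). A match describes the letters and not a bound site.

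None of the 11 tested Adam genes had an unadjusted p under 0.05 in HF versus NP, where 5.17% of all genes were higher and 7.91% lower at that level. The abundant sheddases had small fold changes. *Adam17*, which releases tumor necrosis factor and ligands of the epidermal growth factor receptor, averaged 462 ± 51.7 in NP and 505 ± 60.3 in HF, with a log2 fold change of 0.12 ± 0.11. *Adam10*, which sheds Notch and cadherins, had a log2 fold change of 0.18 ± 0.11, and *Adam15* had −0.05 ± 0.20. HF mouse 2 had an *Adam15* value of 875, far above the 426 to 482 of the other 4. *Adam9*, chosen here after its values were seen, had 15.3, 10.5, 155, 13.2 and 202 in HF and 5.50, 34.6, 5.25, 14.6 and 133 in NP, so the groups overlapped, with a log2 fold change of 1.06 ± 0.91. The others with larger fold changes also had wide errors, namely *Adam33* (−0.66 ± 0.48), *Adam12* (0.53 ± 0.62), and *Adam19* (0.51 ± 0.36).

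Less protein in the high-fat diet went with lower values of several of the same transcripts. No member and no gene at all was called in HF+LP versus HF (0% of all genes) with edgeR. DESeq2 called no member either, and 0.119% of all genes. At an unadjusted p under 0.05, 5 members (12.2%) were lower in HF+LP, against 2.43% of all genes, and 1 (2.44%) was higher, against 2.41%. The 5 were *Mmp2*, *Mmp3*, *Mmp13*, *Adamts2*, and *Adamtsl2*, and the 1 was *Mmp9*. Without HF+LP mouse 3 the lower members were 9 (3.55% of all genes). Groups did not overlap for 2 members lower in HF+LP (4.88%, against 0.636% of all genes) and 1 higher (2.44%, against 0.543%). The median log2 fold change was −0.15, with 30 of 41 members below 0, beside a median of 0.02 over all genes. These comparisons share the HF mice with HF versus NP, so the HF values enter both with opposite sign.

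*Adamts2* had 174, 236, 181, 239 and 243 in HF+LP mice 1 to 5, all below the lowest HF value of 269. The log2 fold change was −0.46 ± 0.16 (edgeR adjusted p = 0.602), and the HF+LP mean of 215 ± 34.2 lay near the NP mean of 194 ± 13.2. *Adamtsl2* had 30.2, 49.1, 44.7, 41.4 and 47.4, also all below HF, with a log2 fold change of −0.70 ± 0.24 (edgeR adjusted p = 0.580). *Adamtsl5* was the member whose 5 HF+LP values, 634, 648, 632, 654 and 644, all exceeded the HF values, by a log2 fold change of 0.15 ± 0.10 that had an unadjusted p above 0.05.

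*Mmp2* and *Mmp3* had lower means in HF+LP than in HF, but the mice overlapped. *Mmp2* had 451, 621, 504, 688 and 586 in HF+LP, a log2 fold change of −0.31 ± 0.11 (edgeR adjusted p = 0.645). *Mmp3* had 49.0, 63.0, 150.3, 125 and 124, where HF+LP mice 1 and 2 were below every NP mouse and mice 3 to 5 were above every NP mouse, and the log2 fold change was −0.67 ± 0.25 (edgeR adjusted p = 0.684). *Mmp14* had 283, 252, 455, 346 and 284, a log2 fold change of −0.31 ± 0.18 against HF with overlapping values. *Mmp13*, an interstitial collagenase, had 10.2, 10.5, 12.2, 18.5 and 17.6 in HF and 6.25, 4.27, 2.85, 11.2 and 1.03 in HF+LP, a few reads per library, with a log2 fold change of −1.45 ± 0.42 and the lowest adjusted p of any member in this comparison, 0.408 from edgeR.

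*Mmp9*, the gelatinase of neutrophils and macrophages, had 20.3, 13.2, 50.6, 29.9 and 37.6 in HF and 32.3, 27.8, 54.2, 149 and 167 in HF+LP. HF+LP mice 4 and 5 carried the difference, and the other 3 lay close to the HF range. The log2 fold change was 1.47 ± 0.45 (edgeR adjusted p = 0.459) and was 1.08 without HF+LP mouse 5. The 4 neutrophil markers in the table (*Ly6g* was not among them) summed to 99.4 to 281.5 in HF+LP and 69.9 to 293.4 in HF, and their part in the *Mmp9* values was not tested.

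**Figure D4:**
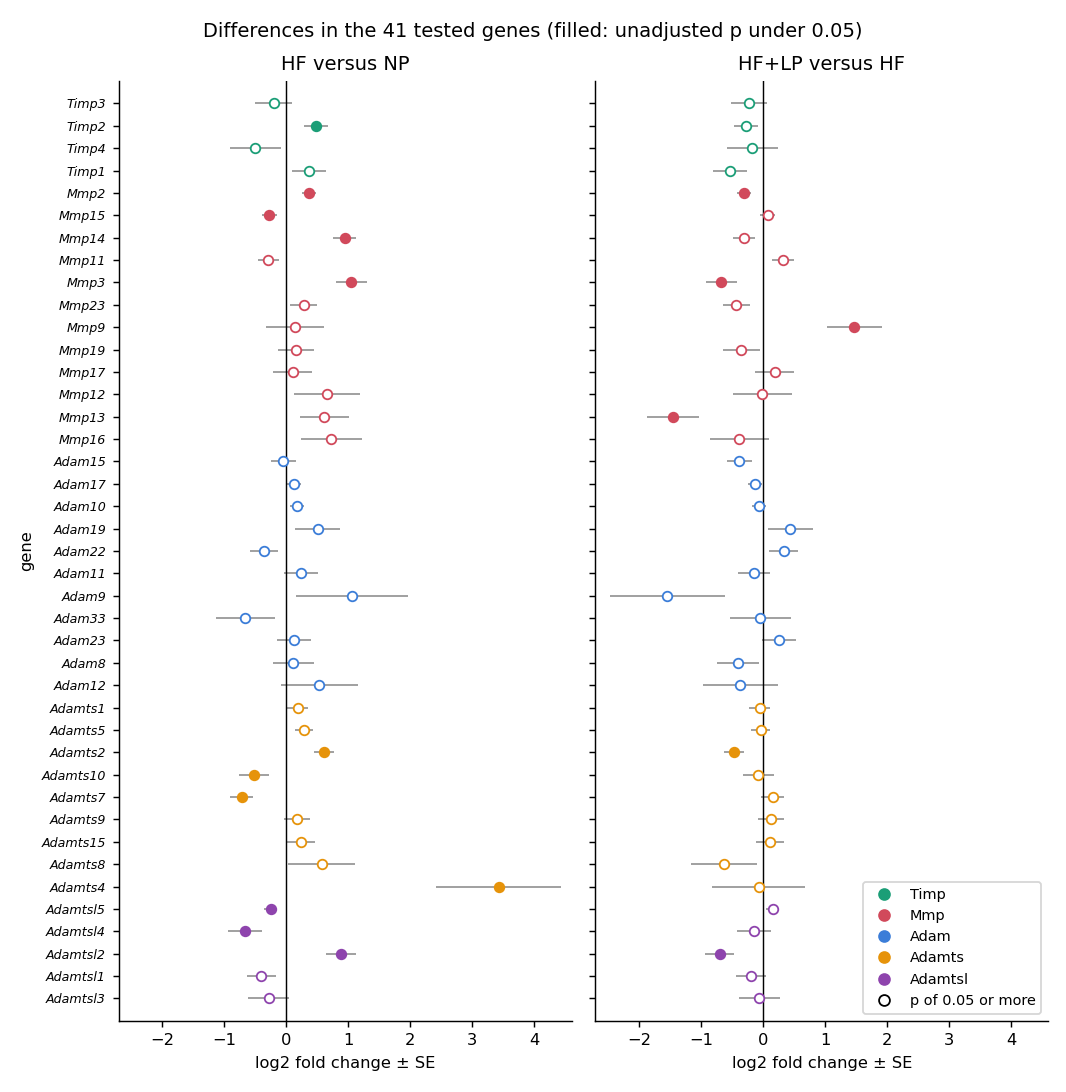
Log2 fold change with its SE for the 41 tested members in HF versus NP (left) and HF+LP versus HF (right), grouped by family and ordered by base mean within it, with filled points at an unadjusted p under 0.05. *Adamts2*, *Adamtsl2*, *Mmp2*, and *Mmp3* are filled to the right of 0 on the left and to the left of 0 on the right, in comparisons that share the HF mice, and *Adamts4* and *Adam9* have the widest error bars among the members.

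With low protein on the lower-fat diet, no member or gene was called by edgeR (LP versus NP, 0% of all genes). DESeq2 called no member and 0.0398% of all genes. At an unadjusted p under 0.05, 4 members were higher in LP (9.76%, against 5.02% of all genes), namely *Mmp14*, *Adamts4*, *Adamts15*, and *Adam8*, and 1 was lower (2.44%, against 2.21%), namely *Adamtsl5*. *Mmp14* had 386, 299, 313, 228 and 284 in LP mice 2, 5, 13, 15, and 20, overlapping NP, with a log2 fold change of 0.53 ± 0.18 (edgeR adjusted p = 0.558) that was 0.51 without LP mouse 13. *Adamts15*, a proteoglycan-cutting enzyme, had 111 ± 24.5 in LP and 76.9 ± 15.1 in NP. *Adamtsl5* had 611, 583, 437, 703 and 561, with LP mouse 13 lowest, and its log2 fold change of −0.25 ± 0.10 was −0.17 without that mouse. *Adam8*, a sheddase of leukocytes, had 17.9 ± 4.38 in LP and 11.1 ± 5.64 in NP. Without LP mouse 13, *Adam8* and *Adamts15* had unadjusted p of 0.0651 and 0.0601, and the counts were 3 higher and 0 lower (4.4% and 1.69% of all genes). Without NP mouse 5, 6, or 8 or LP mouse 2 only 2 members were higher (3.96% to 6.51% of all genes), near the share of all genes, and without LP mouse 2 or 5 the lower members were 2 (at most 3.45%). With the number in the library names as a factor, the higher members were also 2 (4.77% of all genes). The 4 neutrophil markers summed to 93.3 to 373 in LP and 72.6 to 166 in NP, with 3 of 3 tested higher at an unadjusted p under 0.05. The 5 lymphocyte markers summed to 41.2 to 2170 in LP and 19.1 to 52.5 in NP, with 1 of 2 tested higher. Their LP mean of 477 ± 946 (SD, n = 5) was set mainly by the 1 highest mouse. Of the adipocyte markers 3 of 6 were higher, with sums of 76.9 to 5224 in LP and 22.3 to 816 in NP, as were 1 of 5 atrial and 1 of 5 red blood cell markers. The part of these cells in the member values was not tested.

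HF+LP versus NP sets the combined diet against the control diet. No member was called, whereas 0.0394% of all genes with a base mean over 50 were. At an unadjusted p under 0.05, 4 members were higher (9.76%, against 3.9% of all genes), namely *Mmp14*, *Mmp9*, *Adamts4*, and *Adam19*, and 5 were lower (12.2%, against 4.87%), namely *Adamts7*, *Adamts10*, *Adamtsl1*, *Adamtsl4*, and *Adam15*. The lower members were 3 without NP mouse 4 (3.91% of all genes). *Mmp14* had a log2 fold change of 0.63 ± 0.18 (edgeR adjusted p = 0.250) and *Adamts7* of −0.56 ± 0.18 (edgeR adjusted p = 0.304). *Mmp2* and *Mmp3* had log2 fold changes of 0.05 ± 0.11 and 0.38 ± 0.25 between these diets. At the same level 2 of 3 tested neutrophil markers were higher, with sums of 99.4 to 281.5 in HF+LP and 72.6 to 166 in NP. The red blood cell markers were higher for 4 of 5, with sums of 82070.2 to 313598 and 60801 to 178249, and the mural markers lower for 2 of 7, with sums of 8042 to 10490.5 and 8410 to 9206. The part of these cells in the *Mmp9* and *Adamts7* values was not tested.

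Between the low-protein diets, HF+LP versus LP, no member was called (0.138% of all genes were). At an unadjusted p under 0.05, *Adamts1* and *Adamts5* were higher in HF+LP (2 members, 4.88%, against 6.26% of all genes), and *Adam8*, *Adam33*, *Adamts10*, and *Adamtsl4* were lower (4 members, 9.76%, against 9.66%), shares close to or under those of all genes. *Adamts5*, the main aggrecanase of cartilage and a versican-cutting enzyme, had 381 ± 45.1 in HF+LP and 284 ± 54.3 in LP, a log2 fold change of 0.42 ± 0.15 (edgeR adjusted p = 0.182). LP mouse 13 held the highest *Adam33*, *Adamts10*, and *Adamtsl4* values, 165, 423, and 1072, and without it the log2 fold changes moved from −1.47 ± 0.47 to −0.70 for *Adam33*, and from −0.80 ± 0.27 to −0.43 for *Adamtsl4*. The count of lower members was then 2 (7.81% of all genes were lower), and it was 7 without LP mouse 5 (12.7%). The count of higher members lay between 1 and 4 with 1 mouse left out, a range not set against all genes in the same refits. With the score of the 5 atrial markers as a covariate, an alternative chosen after seeing the data, *Adam33* was −0.65, *Adamtsl4* −0.46, and *Adamts10* −0.47 instead of −0.75, none with an unadjusted p under 0.05. Of the atrial markers 1 of 5 was lower in HF+LP than in LP at that level. All 6 adipocyte markers were lower, with sums of 12.3 to 199 in HF+LP and 76.9 to 5224 in LP, and 2 of 7 mural markers were, with sums of 8042 to 10490.5 and 6775 to 9765. At that level 2 of 10 macrophage and monocyte and 1 of 7 endothelial markers were higher, and 1 of 6 cardiomyocyte markers was lower. Of 4 tested Schwann and nerve markers, 1 was higher and 2 were lower. The part of cells other than atrial ones in the member values was not tested.

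The interaction of fat and protein compares the effect of low protein on the high-fat diet with its effect on the lower-fat diet. No member and no gene was called (0% of all genes) with edgeR or with DESeq2. At an unadjusted p under 0.05, 6 members had a negative interaction (14.6%, against 4.31% of all genes), namely *Mmp3*, *Mmp14*, *Mmp23*, *Adam8*, *Adamts2*, and *Adamtsl2*, and 1 a positive one (2.44%, against 2.86%), namely *Adamtsl5*. The negative count was 3 without HF+LP mouse 1 (3.55% of all genes). It was 4 to 7 without any other mouse, a range not compared with all genes in those refits. The log2 values were −0.84 ± 0.26 for *Mmp14*, −1.04 ± 0.34 for *Adamtsl2*, −0.62 ± 0.23 for *Adamts2*, and 0.40 ± 0.14 for *Adamtsl5*, with edgeR adjusted p from 0.614 to 0.668. For *Mmp14* low protein went with a higher mean on the lower-fat diet (209 ± 47.4 to 302 ± 56.8) and a lower mean on the high-fat diet (401 ± 72.0 to 324 ± 80.6). *Mmp23*, coding for a membrane-tethered Mmp with an unusual domain order, had an interaction of −0.68 ± 0.31, which was −0.46 without LP mouse 13, and the *Adamts2* interaction was −0.39 without that mouse. With the atrial score as a covariate *Mmp23* was −0.49. Among the markers, 5 of 6 adipocyte, 1 of 5 atrial, 2 of 10 macrophage and monocyte, 1 of 3 neutrophil, 1 of 8 fibroblast, and 1 of 4 Schwann and nerve genes had a negative interaction at an unadjusted p under 0.05 and 1 of 6 cardiomyocyte genes a positive one, and adipocyte sums were 22.3 to 816 in NP and 10.5 to 1199 in HF. Their part was not tested beyond the atrial score.

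A few members, chosen here after their values were seen, split the mice of 1 diet into high and low values. *Adamts4*, an aggrecanase with a base mean of 13.2, had 5.21, 3.21, 30.4, 31.4 and 25.8 in HF+LP mice 1 to 5, 3.81, 15.8, 23.6, 26.4 and 29.2 in HF mice 1 to 5, 26.6, 29.7, 1.26, 0 and 2.15 in LP mice 2, 5, 13, 15, and 20, and 0, 1.19, 2.62, 1.72 and 3.39 in NP. It was thus at 5.21 or less in some mice of LP, HF, and HF+LP and at 23.6 or more in others, with HF mouse 2 in between. The log2 fold change of 3.43 ± 1.01 in HF versus NP rests on counts near 0 in NP.

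*Adam19*, *Timp3*, and *Timp4* split along the same mice of LP and HF+LP. *Adam19*, a sheddase of neuregulin, was 407, 483, and 479 in HF+LP mice 3 to 5 and 475 and 418 in LP mice 2 and 5, and 318 or less in every other mouse. *Timp4* was 817, 684, 211, 149 and 159 in HF+LP mice 1 to 5 and 322, 235, 492, 770.1 and 417 in LP mice 2, 5, 13, 15, and 20. HF+LP mice 3 to 5 and LP mice 2 and 5 were thus the lowest of their diets. In HF mice 1 to 5 *Timp4* was 384, 749, 485, 359 and 302, so HF mouse 1 lay below HF mouse 3. *Timp3* was 5409, 3944, 2954, 2456 and 2428 in HF+LP and 2332, 2252, 7118, 5215 and 4517 in LP, with the same 5 mice lowest, and in HF mice 1 to 5 it was 5529, 5419, 3632, 2899 and 2578.

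These mice also differed in genes of the circadian clock, which were looked at after the values above had been seen. The clock output gene *Dbp* was 1865, 1846, 227, 262 and 237 in HF+LP mice 1 to 5, 158, 265, 2927, 2188 and 1447 in LP mice 2, 5, 13, 15, and 20, 1255, 788, 482, 725 and 857 in HF mice 1 to 5, and 1698, 2368, 1789, 1592 and 2035 in NP mice. *Arntl*, which peaks at the opposite phase, was 14.6, 16.0, 116, 96.3 and 33.0 in HF+LP and 108, 84.1, 8.81, 1.26 and 32.3 in LP, and 7.74 to 21.5 in NP. The study's methods place tissue collection in the middle of the light period, and the labels give no hour per mouse. HF+LP and HF mice 3 to 5 share the number 3 in their library names, as does LP mouse 5, which had low *Dbp* as well. NP mice 5 and 8 and LP mouse 15 carry that number with high *Dbp*, and LP mouse 2, with low *Dbp*, carries the number 1.

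**Figure D5:**
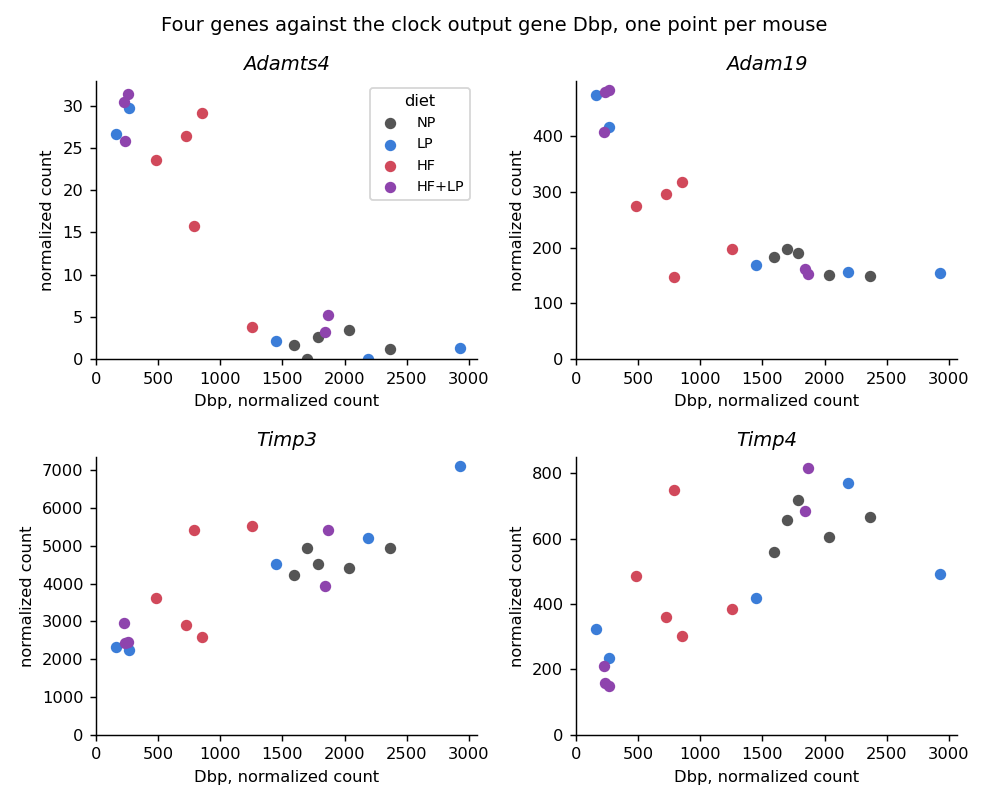
Normalized counts of *Adamts4*, *Adam19*, *Timp3*, and *Timp4* (vertical axes, from 0) against the normalized count of *Dbp* (horizontal axis, from 0), 1 point per mouse colored by diet. Low-*Dbp* mice from LP and HF+LP have high *Adamts4* and *Adam19* and low *Timp3* and *Timp4*, and all NP mice lie at *Dbp* counts of 1592 or more.

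The comparisons were therefore refitted with a score of 11 clock genes as a covariate, an alternative chosen after seeing the data. In HF versus NP *Mmp14* had a log2 fold change of 0.71 instead of 0.94, *Mmp3* of 0.92 instead of 1.05, *Adamts2* of 0.72 instead of 0.61, and *Adamtsl2* of 1.06 instead of 0.89, each still with an unadjusted p under 0.05. *Adamtsl4* went from −0.67 to −0.25, *Adamts10* from −0.52 to −0.22, and *Adamts4* from 3.43 to 1.59, moves of more than 1.5 times, and at an unadjusted p under 0.05 the members were 9 higher and 2 lower instead of 7 and 5, with 5.03% and 7.06% of all genes in the same fit. In HF+LP versus NP, *Adam19* went from 0.95 to 0.00, *Mmp14* from 0.63 to 0.36, *Mmp9* from 1.61 to 1.06, and *Adamts4* from 3.36 to 0.85, so that 0 instead of 4 members were higher at that level (2.45% of all genes). *Adamts10* went from −0.59 to −0.22, *Adamtsl4* from −0.82 to −0.36, and *Adam15* from −0.43 to −0.24, and 3 instead of 5 were lower (3.17%). In LP versus NP, *Adamts4* went from 2.60 to 0.26 and *Adamts15* from 0.53 to 0.35, and 2 instead of 4 members were higher (6.2% of all genes) and 2 instead of 1 lower (2.94%). The counts for HF+LP versus HF and for the interaction were 1 higher with 6 lower (2.4% and 2.49% of all genes) and 1 positive with 6 negative (3.87% and 5.21%). NP mice all lie on 1 side of this score and HF mice 3 to 5 on the other, so diet and score overlap only in part.

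The neighbors of these enzymes in matrix turnover were read from lists of related genes, and their counts stand beside the shares of all genes at an unadjusted p under 0.05, which were 5.17% higher and 7.91% lower in HF versus NP and 2.41% higher and 2.43% lower in HF+LP versus HF. Of 21 listed substrates in the matrix, 4 were higher and 2 lower in HF than in NP at that level, and none was called, so the lower share was near that of all genes. *Col3a1*, coding for type III collagen, had 1899 ± 448 in HF and 1036 ± 114 in NP (0.87 ± 0.19, edgeR adjusted p = 0.0217), and the basement membrane gene *Col4a1* had a log2 fold change of 0.50 ± 0.14. *Lama2*, the laminin chain of muscle, and *Hspg2*, coding for perlecan, pointed down at −0.36 ± 0.11 and −0.55 ± 0.17. In HF+LP versus HF 5 of the 21 were lower and none higher, among them *Col3a1* (−0.55 ± 0.19), *Vcan* (−0.60 ± 0.21), and *Bgn* (−0.43 ± 0.18), the last 2 coding for the proteoglycans versican and biglycan.

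Of 14 tested cathepsins and cystatins, 3 were higher in HF than in NP at an unadjusted p under 0.05 (5.17% of all genes were) and 1 was called (0.364% of all genes were). The called gene was *Ctss*, a cathepsin of macrophage lysosomes, which rose from 288 ± 15.7 to 559 ± 106 (0.95 ± 0.16, edgeR adjusted p = 0.00489), and *Ctsz* and *Ctsc* had 0.40 ± 0.13 and 0.38 ± 0.17. Of 6 genes for plasminogen activators and their inhibitors, 1 was higher in HF and 2 lower in HF+LP than in HF, among them the protease nexin *Serpine2* at −0.43 ± 0.16 (edgeR adjusted p = 0.670). *Pcolce*, the enhancer of procollagen C-proteinase, had a log2 fold change of 0.37 ± 0.16 in HF versus NP and of −0.35 ± 0.16 in HF+LP versus HF. It was the 1 gene higher in HF among 10 in a mixed list of astacin-type and serine proteases, their enhancers, and matrix glycosidases, and the hyaluronidase *Hyal1* (−0.38 ± 0.16) was the 1 that was lower. Of 17 activators, anchors, and clearance receptors of metalloproteases, 1 was higher in HF and none lower.

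Membrane proteins that are shed by these proteases were 3 higher and 1 lower of 19 in HF versus NP at an unadjusted p under 0.05, against 5.17% and 7.91% of all genes. *Cd44*, the hyaluronan receptor that docks Mmp14 and Mmp9 and is cut by Mmp14 and Adam10, had 162 ± 23.6 in HF and 89.4 ± 11.7 in NP (0.86 ± 0.17, edgeR adjusted p = 0.0140). *Sdc4* and *Cxcl16* had log2 fold changes of 0.63 ± 0.27 and 0.39 ± 0.18. None of the 19 was higher or lower in HF+LP versus HF at that level.

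Marker genes of several cell types moved with some of the values. The 8 fibroblast markers summed to 20890 ± 2610 in HF, 18503 ± 1522 in NP, and 17378 ± 1622 in HF+LP (SD, n = 5), with 1 of 8 higher in HF versus NP and 2 lower in HF+LP versus HF at an unadjusted p under 0.05. The 10 macrophage and monocyte markers summed to 6977 to 9213 in HF and 5163 to 6945 in NP, which do not overlap. They summed to 5272 to 7162 in HF+LP. At that level 6 of the 10 were higher in HF versus NP and 2 were lower in HF+LP versus HF. Cardiomyocyte markers summed to 524674 ± 49132 in HF and 636051 ± 42562 in NP, with 3 of 6 lower in HF versus NP. The 5 Schwann and nerve markers summed to 2401 to 2759 in HF, above the 1905 to 2302 in NP and the 1973 to 2337 in HF+LP, and *Prnp*, a gene of many cell types with a base mean of 2023, gave most of the sum and was the 1 of 4 tested markers that differed at that level. The 4 neutrophil markers summed to 69.9 to 293.4 in HF and 72.6 to 166 in NP, with 3 of 3 tested higher. No defining marker of the fibroblast, macrophage, and cardiomyocyte lists was at 0 in a group, and the part of these cells in the values of *Mmp14*, *Mmp2*, *Mmp3*, *Adamts2*, and *Adamtsl2* was not tested.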

How the data were processed

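Left ventricles of 20 mice, 5 per diet, were analyzed. The authors made QuantSeq 3′ libraries, sequenced them on a NextSeq 500, used BlueBee software for alignment, and deposited raw counts per Ensembl gene and mouse, for genes with at least 60 counts in total. The submitters' processing notes name GRCm38, and the counting program and its use of strand are not given in the sources used here, so reads of overlapping genes on opposite strands (exons of 13 members) may be shared. Mice were assigned to diets from the labels. The LP library named mouse 5 here is labelled as a second sample of that animal, no other library of it was analysed, and what this marks is not given in the sources used here.

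Counts were analyzed in R 4.3.3 with edgeR 4.0.16 (filterByExpr by diet, TMM, quasi-likelihood test on all 20 libraries, Benjamini-Hochberg adjustment over 13991 genes). The standard error of a log2 fold change is its size divided by the square root of the F statistic. The script was tested on simulated data. Calls used the thresholds of the study's methods, a base mean over 50 with an adjusted p under 0.01. DESeq2 1.42.0 was an alternative, with those listed in the closing section. Mice were group-housed, the cage and processing day of each mouse are not given in the sources used here, and p-values measure the spread between these mice only. Coordinates are those of GENCODE M21 on GRCm38, and upstream sequences those of RefSeq on GRCm38.p6, which held 30 of the 50 genes.

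The members and the gene lists were chosen with earlier results of these data known. The text names the Timp genes, *Mmp2*, *Mmp14*, the 3 highest members of each family, members singled out by a count of 5 or fewer, and in each comparison up to 5 members with the smallest p among those under 0.05 with a base mean over 50, plus up to 3 such genes of each related list in HF versus NP and in HF+LP versus HF. Genes outside this rule (*Adam9*, *Adam12*, *Mmp11*, *Mmp16*, *Mmp17*, *Adamtsl3*, *Myh11*, *Prnp*, and the clock genes) were chosen after values were seen.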

Additional observations from a re-analysis of the deposited data

Results flagged for a closer look

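Among the 28 named members, each diet group of 5 mice was searched for a mouse far from the other 4, by comparing its gap to the nearest mouse with the range of the group. Of 112 such groups 7 held such a mouse, and chance alone gives one in about 1 of 20 groups. LP mouse 13 gave 3 of the 7: *Adam33* at 165 with the other LP mice between 18.6 and 59.6, *Adamts2* at 337 with the others between 162 and 203, and *Timp1* at 121 with the others between 39.9 and 61.8. This is also the library with the most atrial marker reads.

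*Adam15* stood out at 875 in HF mouse 2, above 426 to 482 in the other HF mice, and at 296 in HF+LP mouse 4, below 428 to 459 in the other HF+LP mice. *Mmp13* was at 12.0 in LP mouse 2, above 3.77 to 5.13 in the other LP mice, which at these levels is a difference of a few reads. *Mmp3* was at 91.8 in NP mouse 5, above 74.0 to 76.6 in the other NP mice, so the NP mouse farthest out lay on the side of the HF mice. No interaction of fat and protein passed the threshold for any member.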

How the results depend on the processing

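No member was called in the fit as reported, and the counts of called members moved under few alternatives. In HF versus NP the count was 2 with DESeq2 (*Mmp14* and *Mmp3*, 1.57% of all genes), 2 at an adjusted p under 0.05 (the same pair, 1.55%), 2 with only the 2 groups compared in the model (*Mmp3* and *Adamts2*, 0.609%), 1 with the atrial gene score as a covariate (*Mmp14*, 0.512%), and 0 to 1 with 1 mouse left out (0.226% to 0.686% where it was 1): *Mmp14* without NP mouse 5, HF mouse 2, or HF+LP mouse 3, and *Adamts2* without LP mouse 13. In the test of any difference it was 3 with DESeq2 (3.16% of all genes) and 3 at an adjusted p under 0.05 (2.48%), *Mmp2*, *Mmp3*, and *Mmp14* each time, and 0 to 1 with 1 mouse left out, where the 1 was *Adamts2* without LP mouse 13 (0.845%). It stayed at 0 in the other comparisons under every alternative run, and everywhere with RLE size factors, TMM without mitochondrially encoded genes, no filter, at least 10 counts per library, the number that library names carry as a factor, no base mean minimum, or the clock score as a covariate. Both covariate scores were chosen after seeing the data.

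Of 45 log2 fold changes with an unadjusted p under 0.05, 18 kept it under every alternative. Over 1411 refits of these 45, 1398 kept the sign and the side of the call threshold, 11 passed it, and 2 reversed, both with a replicate block: in HF+LP versus LP, *Adamts10* became 0.10 and *Adam33* 0.19. The labels state no pairing of mice by animal number. Deviations of same-numbered HF and HF+LP mice had correlations of −0.55 to 0.49, too few and too mixed to settle it. The block called 0 members. Depth limits low members most: *Mmp13* and *Adamts4* had base means of 8.57 and 13.2.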
